A study of Mus musculus with 19 samples.

Results

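NFIA peaks in mouse glial progenitor cells (GPC) were taken as all rows of the NFIA list that lie outside the mitochondrial chromosome, 14151 of 14164 rows. The 3 peak lists of the study, for NFIA, SOX9 and SOX3, hold 18474 rows in all. The cells were made from embryonic stem cells with 0.1 µM retinoic acid, sorted on day 8 for the surface antigen A2B5 and grown with EGF and FGF2 at 10 ng/ml, per the labels. Chromatin immunoprecipitation (ChIP-seq) gave 1 list from 2 NFIA samples, 1 from 3 SOX9 samples (2943 peaks) and 1 from 2 SOX3 samples (1367 peaks), all in GPC, at 7000000 to 20000000 reads of 43 bp per experiment. RNA was sequenced from 4 GPC and 3 glia libraries, and the labels give the glia the same protocol text as the GPC. No deletion or transgene is named for any group.

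NFIA belongs to the nuclear factor I family, whose members bind DNA as dimers at a palindrome with the arms TTGGC and GCCAA and, more weakly, at a single arm of it. In the developing spinal cord NFIA is induced by SOX9 at the onset of gliogenesis, and both factors then act on shared glial genes. SOX3 is a SOXB1 factor of neural progenitors. The comparison asks where NFIA sat in progenitors relative to SOX9 and SOX3. It also asks whether the genes assigned to shared positions change between progenitors and glia.

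The labelled cell type was checked first. GPC libraries held the neural progenitor transcripts Nes at 132 ± 5.77, Sox2 at 150 ± 10.1 and Fabp7 at 5529 ± 252 RPKM (SD, n = 4). RPKM are read counts scaled by gene length and library size. Olig2, of the oligodendrocyte precursor list, was at 534 ± 28.7 RPKM. A mean of 1 RPKM in GPC was reached by 19 of 22 neural progenitor, 21 of 22 oligodendrocyte precursor and 30 of 31 astrocyte genes. It was also reached by 13 of 15 mesenchymal, 15 of 28 maturing oligodendrocyte and 10 of 20 neuronal genes. For microglial, endothelial and pluripotency genes the counts were 2 of 11, 2 of 9 and 2 of 8. Over all genes the count was 12022 of 22958 (52.4%). Pou5f1, a pluripotency factor, was at 0 in all 7 libraries, and Klf4, of the same list, had a GPC mean of 1.76 RPKM. The mesenchymal genes summed to 1367 to 1503 RPKM per GPC library and 2047 to 2359 per glia library, and their part in the results was not tested. The reads counted in genes ranged from 12836998 to 22439837 per GPC library and from 6897294 to 17369367 per glia library. GPC replicate 3 was the deepest and stood apart from the other GPC libraries for several genes below.

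Promoters beside shared NFIA and SOX peaks are described first, and the peak counts below do not rest on them. There were 13 genes with an NFIA peak overlapping a SOX peak whose deposited distance to the transcription start site (TSS) lay between -400 and 200 bp, and 12 of the 13 had a RefSeq promoter (assembly GRCm38.p6, 250 bases before to 50 after the start). Peaks are on mm9 and promoters on GRCm38.p6, and the builds were not placed on each other, so the printed bases are the promoter and not the peak. Capitals mark every TTGGC or GCCAA and, in Polr3e, the B box, an internal promoter element of tRNA genes. The printed promoters were picked from those with a match, and promoters without one, such as that of Ang, are not printed. Polr3e encodes a subunit of RNA polymerase III (chr7:120917528-120917827, plus strand), Ilf2 a partner of double-stranded RNA-binding proteins (chr3:90475951-90476250, plus strand), Rab11a a recycling-endosome GTPase (chr9:64737707-64738006, minus strand) and Hist1h3h a replication-dependent histone H3 (chr13:21717378-21717677, plus strand).
Polr3e: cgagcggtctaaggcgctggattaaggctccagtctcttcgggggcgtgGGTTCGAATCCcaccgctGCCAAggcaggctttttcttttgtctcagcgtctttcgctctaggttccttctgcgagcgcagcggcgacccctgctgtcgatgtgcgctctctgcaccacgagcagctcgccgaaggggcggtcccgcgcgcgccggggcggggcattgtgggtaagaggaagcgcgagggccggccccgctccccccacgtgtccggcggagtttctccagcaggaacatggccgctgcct
Ilf2: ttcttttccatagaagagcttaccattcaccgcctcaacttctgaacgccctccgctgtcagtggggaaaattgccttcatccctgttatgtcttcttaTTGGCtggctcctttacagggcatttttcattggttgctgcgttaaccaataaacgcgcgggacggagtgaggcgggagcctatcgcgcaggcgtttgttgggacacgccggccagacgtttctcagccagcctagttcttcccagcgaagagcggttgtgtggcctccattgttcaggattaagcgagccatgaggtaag
Rab11a: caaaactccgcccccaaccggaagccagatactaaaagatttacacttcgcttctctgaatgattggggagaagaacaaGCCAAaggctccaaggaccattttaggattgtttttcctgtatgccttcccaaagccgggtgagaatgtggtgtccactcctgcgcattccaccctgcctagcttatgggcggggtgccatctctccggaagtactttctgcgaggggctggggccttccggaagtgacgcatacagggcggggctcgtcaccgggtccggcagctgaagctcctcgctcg
Hist1h3h: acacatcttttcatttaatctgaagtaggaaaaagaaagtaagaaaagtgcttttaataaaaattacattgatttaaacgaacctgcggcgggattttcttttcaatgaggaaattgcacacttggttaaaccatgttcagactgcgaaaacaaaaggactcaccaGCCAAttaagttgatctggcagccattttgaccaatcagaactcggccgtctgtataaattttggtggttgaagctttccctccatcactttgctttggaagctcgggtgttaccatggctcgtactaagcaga
The Polr3e promoter held GGTTCGAATCC at position -201 and GCCAA at -183 from its TSS, and its NFIA peak scored 72 with the SOX9 peak at -192 bp. Ilf2 held TTGGC at -151, with a peak of score 749 and the SOX9 peak at -297 bp. Rab11a held GCCAA at -171, with a peak of score 64 and the SOX9 peak at -322 bp. Both SOX9 positions lie before the printed promoter, which starts 250 bases before the TSS. Hist1h3h held GCCAA at -84, with a peak of score 16 and the SOX9 peak at 37 bp. Searched on both strands, TTGGC or GCCAA stood in 8 of the 12 promoters (66.7%) and in 15344 of 32851 promoters of the same length (46.7%). Among the 12, the SOX peaks of Ang, Casc5, Alyref2 and Fam3c also lay before the promoter window, at -389, -323, -338 and -269 bp. The whole palindrome, TTGGC and GCCAA with 5 free bases between them, stood in 0 of the 12 and in 12 of all promoters (0.0365%), and each whole palindrome also holds TTGGC and GCCAA. The B box, written GGTTCGA, then NN and CC, and searched on both strands, stood in 1 of the 12 and in 40 of all promoters (0.122%); it was searched after the pattern beside tRNA genes described below had been seen. These matches describe letters in the promoter windows and are not binding sites.

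The list held many low scores and few high ones. Each peak carries 1 score whose meaning is not stated, and with 1 list from both samples no peak value has an error. Scores ran from 14 to 1677 with quartiles at 15, 16 and 19. The lowest score, 14, was held by 3472 peaks (24.5%), and 10900 peaks (77.0%) lay below 20. At the other end 415 peaks (2.93%) scored at least 50, 126 at least 100 and 16 at least 500. Every peak outside the mitochondrial chromosome was 301 bp wide, and starts fell on a grid of 10 bp.

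On the autosomes, which held 12859 peaks, NFIA peaks were spread over nearly the whole length. Density ran from 4.34 peaks per Mb of span on chromosome 19 to 7.21 on chromosome 14, with a median of 5.11. Chromosome 4 had 6.31, chromosome 8 6.19 and chromosome 13 6.18 per Mb. Of 2422 autosomal bins of 1 Mb, 31 held no peak, the median bin held 5, and the 5th and 95th percentiles were 1 and 10. A small number of bins held far more: 28 held at least 20 peaks, and the variance of the count per bin was 4.95 times its mean of 5.31. The fullest were 2 neighbouring bins of chromosome 4, at 145 to 146 Mb with 84 peaks and at 146 to 147 Mb with 107, of which SOX9 had 1 and 0 peaks. The bin at 72 Mb of chromosome 8 held 83 NFIA and 15 SOX9 peaks. SOX9 density had another order, with 1.21 peaks per Mb on chromosome 14 and its highest value, 1.99, on chromosome 13.

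**Figure D1:**
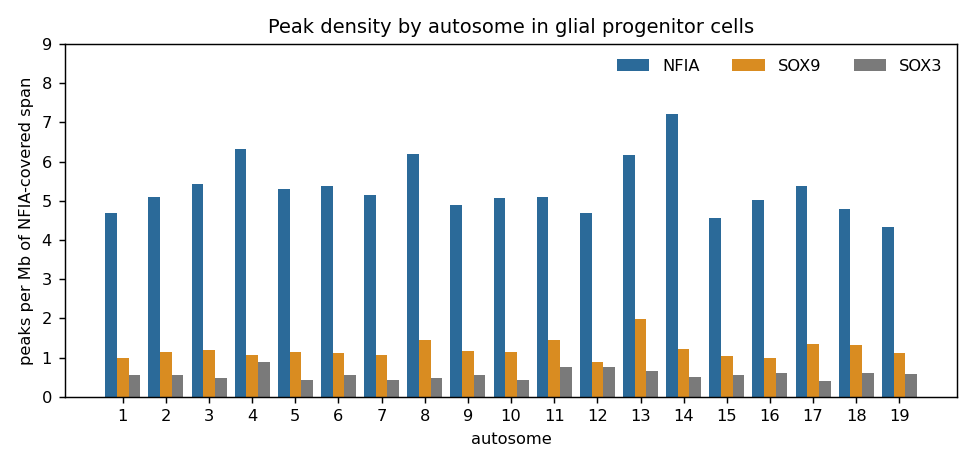
Peaks per Mb of the span between the first and last NFIA peak of each autosome, for NFIA, SOX9 and SOX3; bars start at 0 and there is 1 list per factor. NFIA runs from 4.34 on chromosome 19 to 7.21 on chromosome 14, and SOX9 is highest on chromosome 13 at 1.99.

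The sex chromosomes differed from the autosomes in crowding. Of 1055 peaks on chromosome X, 532 (50.4%) lay between 120 and 123 Mb, a window chosen after its count was seen, and the rest came to 3.26 per Mb. Chromosome Y held 237 peaks. The median score was 16 on the autosomes, 18 on X and 27 on Y. SOX9 overlapped 2.18% of the X peaks and 0.422% of the Y peaks, below the 4.16% to 12.4% seen across the autosomes. The SOX9 list itself had 68 peaks on X, or 0.416 per Mb, and 4 on Y. Its density on the autosomes was 0.888 to 1.99 per Mb. Whether the lower shares follow the number of SOX9 peaks was not tested.

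Neighbouring peaks were most often far apart. The median distance between neighbouring peak centres was 105785 bp, with quartiles of 26752.5 and 254450 bp. Centres lay within 10 kb of each other in 2320 of 14130 gaps (16.4%) and within 1 kb in 804 (5.69%), with the closest at 240 bp. The median gap was 115205 bp on the autosomes, 5090 bp on X and 1065 bp on Y.

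Joining centres at most 10 kb apart gave 998 clusters that held 3318 peaks (23.4%), and 746 of the clusters were pairs. On the autosomes alone 2438 peaks (18.96%) were in clusters. There were 39 clusters with at least 10 peaks, 865 peaks in all, with 20 of these clusters on X, 8 on Y and 11 on autosomes. The largest spanned chr8:71942432-72120722 with 107 peaks, a median score of 21, and 12 peaks overlapped by SOX9. Peaks alone had a median score of 16 and SOX9 overlapped 5.27% of them. In clusters of 2 to 9 the values were 17 and 9.21%, and in clusters of at least 10 they were 23 and 1.62%. On the autosomes alone SOX9 overlapped 549 of 10421 lone peaks (5.27%), 225 of 2188 in clusters of 2 to 9 (10.3%) and 13 of 250 in clusters of at least 10 (5.20%), with median scores of 16, 16 and 19. Of those 13, 12 were in the largest cluster.

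NFIA and SOX9 peaks coincided more often than NFIA and SOX3 peaks when set against the size of the SOX lists. At an overlap of at least 1 bp, 811 NFIA peaks (5.73%) overlapped 835 SOX9 peaks, which is 28.4% of that list. For SOX3 the overlap was 98 NFIA peaks (0.693%) with 101 SOX3 peaks (7.39%). Both SOX factors overlapped 35 NFIA peaks, and 13277 (93.8%) had neither. SOX9 peaks that also overlapped SOX3 were met by NFIA in 39 of 318 cases (12.3%), and those without SOX3 in 796 of 2625 (30.3%). No test of these shares is given, since each factor has 1 list.

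The share overlapped by SOX9 was higher in each higher class of NFIA score. It was 2.12% (231 of 10900) at scores of 14 to 19, 8.11% (180 of 2219) at 20 to 29 and 25.1% (155 of 617) at 30 to 49. It reached 56.1% (162 of 289) at 50 to 99 and 65.9% (83 of 126) at 100 and above. SOX3 overlapped 0.468%, 1.22%, 1.46%, 1.73% and 4.76% of the same classes, or 51, 27, 9, 5 and 6 peaks. The score classes were set after the values had been seen. Peaks with SOX9 alone had a median score of 29, those with SOX3 alone 18, those with both 27 and those with neither 16.

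**Figure D2:**
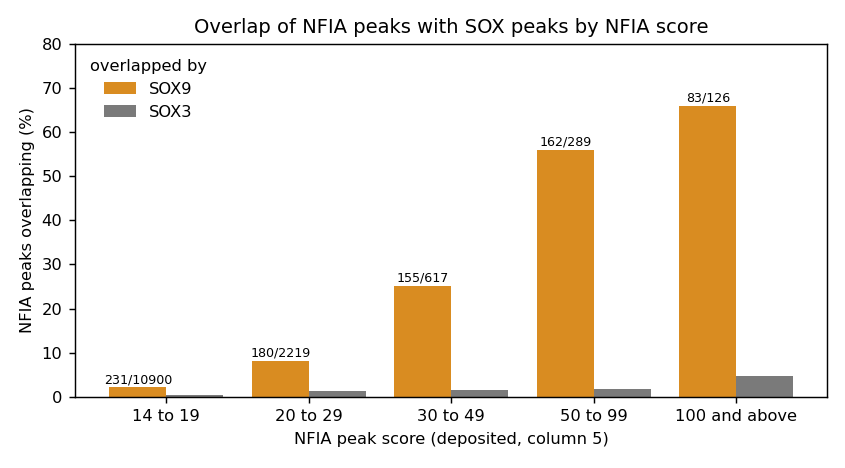
Percent of NFIA peaks overlapping a SOX9 or SOX3 peak by at least 1 bp, by class of the deposited NFIA score; labels give the count overlapped by SOX9 over the class size. SOX9 runs from 2.12% to 65.9% and SOX3 from 0.468% to 4.76%.

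Most NFIA peaks lay far from any SOX peak. The nearest SOX9 or SOX3 centre was a median of 203 kb away, 66.6% of the peaks were beyond 100 kb and 10.8% within 10 kb. The nearest was a SOX9 peak for 10354 NFIA peaks and a SOX3 peak for 3797. The lists hold 2943 SOX9 and 1367 SOX3 peaks. Neither the split nor the distance was set against what these list sizes alone would give. At scores of at least 100 the median distance was 0.0255 kb, against 236 kb at 14 to 19.

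Where peaks overlapped, NFIA and SOX9 centres nearly coincided. The median distance between the centres of NFIA peaks and the SOX9 peaks they overlapped was 10 bp, the upper quartile 28 bp, and 561 of 811 (69.2%) lay within 20 bp. At scores of at least 50 the share within 20 bp was 78.4%, and below 20 it was 55.4%. For SOX3 the median was 54.5 bp and 19 of 98 (19.4%) lay within 20 bp. SOX3 centres thus lay farther from NFIA centres, over 98 pairs.

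**Figure D3:**
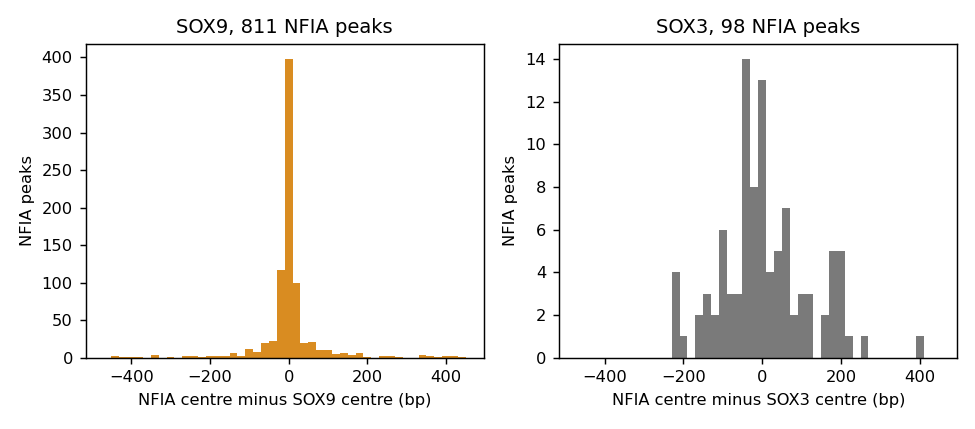
Distance in bp from the SOX centre to the NFIA centre for overlapping peaks, 811 for SOX9 (left) and 98 for SOX3 (right), as counts of NFIA peaks. SOX9 offsets pile up at 0, with 69.2% within 20 bp, and SOX3 offsets are broad, with 19.4%.

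SOX9 peaks near a TSS were met by NFIA least often. NFIA overlapped 35 of 239 SOX9 peaks (14.6%) at most 1 kb from the TSS, 147 of 385 (38.2%) at 1 to 10 kb, 382 of 1373 (27.8%) at 10 to 100 kb and 271 of 946 (28.6%) beyond 100 kb. The median NFIA score of these peaks was 42, 27, 32 and 26 in that order. For SOX3 the counts were 4 of 33, 14 of 184, 41 of 687 and 42 of 463.

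The highest scores came in a few places. The peak at chr9:102030122-102030422 had the top score of 1677, with a SOX9 centre 0 bp away and that SOX9 peak assigned to 9630041A04Rik, 189 kb from its TSS. The next 4, with scores of 1447 (chr11:69861742-69862042), 1384 (chr1:75809342-75809642), 1343 (chr16:5025782-5026082) and 1219 (chr14:52776322-52776622), overlapped no SOX peak. After these came 6 peaks on chromosome 13 between 21 and 24 Mb, with scores of 946, 899, 865, 859, 780 and 766, each 3 to 16 bp from a SOX9 centre. That window, which holds the Hist1 histone genes, had 68 NFIA peaks with a median score of 48; 54 overlapped SOX9, 34 scored at least 50, and 6 of the list's 16 peaks of at least 500 were there. It was chosen after its values were seen.

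The histone H3 genes with an NFIA peak at their start had low scores there. Of 22 Hist1 genes with a SOX9 peak within 1 kb of the TSS, 7 had an NFIA peak there, and 5 of the 7 were histone H3 genes. The H3 scores were 14 to 18 and their SOX9 peaks lay 37 to 456 bp after the TSS. The high scores of the window lay at SOX9 peaks assigned to Zfp184 (SOX9 peak at -13.9 kb from the TSS), Hist1h4h (-13.3 and -0.658 kb), Hist1h2ai (-5.37 kb), Btn2a2 (-11.3 kb) and Pom121l2 (-6.12 kb).

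Genes at the high-scoring peaks shared with SOX9 often had tRNA genes as neighbours. A tRNA gene was counted as a neighbour when it was among the 3 nearest RefSeq genes on either side of the assigned gene, by gene order in GRCm38.p6; the measure was chosen after the values had been seen, and 3 was the only number tried. By the highest NFIA score at the gene, 6 of 184 genes (3.26%) had such a neighbour at 14 to 19, 6 of 149 (4.03%) at 20 to 29 and 7 of 131 (5.34%) at 30 to 49. The share was 33 of 115 (28.7%) at 50 to 99 and 28 of 71 (39.4%) at 100 and above. Genes of SOX9 peaks without NFIA had one in 36 of 1487 cases (2.42%), and all protein-coding RefSeq genes in 412 of 21900 (1.88%). Counted by peak, the assigned gene had a tRNA neighbour for 107 of 245 SOX9-overlapped NFIA peaks of score at least 50 (43.7%). It had one for 47 of 566 below 50 (8.30%), and for 64 of 2108 SOX9 peaks without NFIA (3.04%). No peak was itself placed beside a tRNA gene, and assigned genes can be far away. Nxph1, with an NFIA score of 173, was counted with its SOX9 peak 1151786 bp from the TSS. Outside the chromosome 13 window the shares were 73 of 211 (34.6%), 33 of 546 (6.04%) and 51 of 2080 (2.45%). Without the peaks whose assigned gene had a tRNA neighbour, 657 NFIA peaks still overlapped SOX9, 138 of them at scores of at least 50. The genes included Zfp184, Ilf2, Trim41 (293) and Aurkb, a mitotic kinase (104), with the highest NFIA score of the last pair in parentheses.

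**Figure D4:**
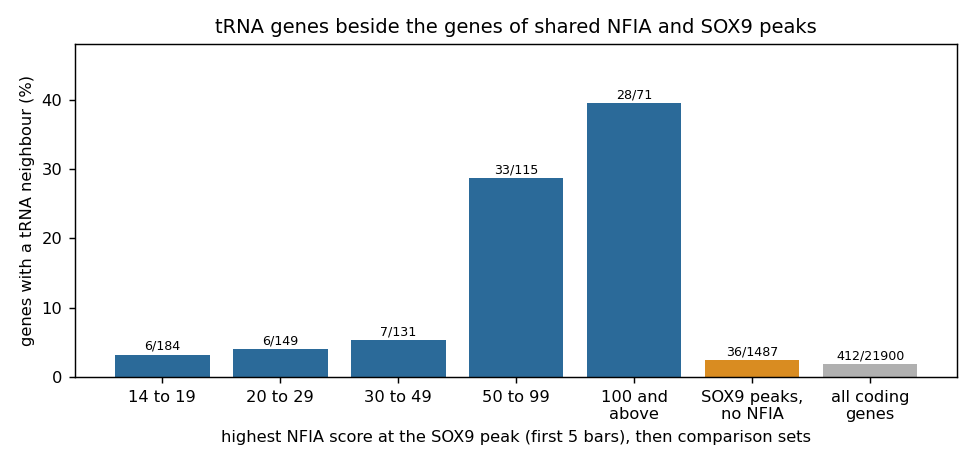
Percent of genes with a tRNA gene among the 3 nearest RefSeq genes on either side, by the highest NFIA score at their SOX9 peaks, with SOX9 genes without NFIA and all coding genes for comparison; labels give counts. The share is 3.26% to 5.34% below a score of 50, 28.7% at 50 to 99 and 39.4% at 100 and above.

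Shared NFIA and SOX peaks were assigned to 721 genes. For 467 genes a shared SOX peak lay at most 100 kb from the TSS. Of the 721, 632 had 1 NFIA peak, 59 had 2 and 30 had at least 3. The most, 8, were at Zfp868 on chromosome 8. The expression table held 665 of the 721, and 452 passed the filter on low counts. Between GPC and glia, 179 of the 452 (39.6%) rose in glia, 148 (32.7%) fell and 125 did neither, at an adjusted p below 0.05 with edgeR's quasi-likelihood test. Across all 13588 genes tested, 70.4% were called, 35.2% higher in glia and 35.2% lower. The genes of SOX9 or SOX3 peaks without NFIA rose in 583 of 1524 cases (38.3%) and fell in 547 (35.9%). The shares beside NFIA were thus near both backgrounds. GPC and glia libraries did not overlap in RPKM for 313 of the 452 genes (69.2%), against 69.1% of all genes tested. The median log2 change was 0.04, against 0.00 over all genes tested. The labels do not say whether replicates came from separate cultures, so these p-values measure the spread between the samples, which may be technical. In bulk samples, fewer cells of a type and less RNA per cell cannot be told apart.

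The median GPC level was 3.24 RPKM over the genes assigned to shared peaks, 7.43 over those of SOX peaks without NFIA and 1.52 over all genes. Genes with a tRNA neighbour gave 12 that rose (27.3%) and 18 that fell (40.9%) of 44 tested. At scores of at least 50, 51 rose (39.8%) and 41 fell (32.0%) of 128 tested. Genes paired with NFIA at both a SOX9 and a SOX3 peak gave 5 that rose (16.7%) and 13 that fell (43.3%) of 30 tested. Over all genes tested, 35.2% rose and 35.2% fell. Whether these sets differ from those shares was not tested.

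The largest rises were in genes of low level in GPC. Bmp6, a bone morphogenetic protein ligand, was at 0.231, 0.406, 1.37 and 0.426 RPKM in GPC replicates 1 to 4 and at 30.3, 27.7 and 29.99 in glia replicates 1 to 3. All glia libraries lay above all GPC libraries, a log2 rise of 5.35 ± 0.36 (SE; edgeR adjusted p = 3.58e-06). Without GPC replicate 3, the highest of the GPC libraries, the log2 rise was 6.31. Its NFIA peak scored 28 at a SOX9 peak 5 bp away, at -48578 bp from the TSS. Epha3, an ephrin receptor, rose by 4.40 ± 0.22 in log2, from 0.702 ± 0.280 (SD, n = 4) to 16.2 ± 1.92 RPKM (n = 3). Nov, a secreted CCN protein, and Dkk2, a Wnt antagonist, rose by 4.47 and 4.58 in log2. The SOX9 peak lay -267 kb from the TSS for Epha3, 1.35 kb for Nov and -189 kb for Dkk2. Opalin, a myelin membrane protein, had 3 reads in all GPC libraries and 252 in glia, at 5.84 to 7.53 RPKM, beside an NFIA peak of score 31 whose SOX9 peak lay 18326 bp from its TSS. Cbln2, a synaptic organiser, and Gng4, a G-protein subunit, also rose and had 2 reads each in GPC, so no fold is given. Their SOX9 peaks lay 454 and 76.6 kb from the TSS.

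The 8 largest falls included the cell-cycle genes Aurkb and Mki67, the members with NFIA of a list of 24 cell-cycle genes that all fell. Spsb4, a SOCS-box protein, was at 34.7, 35.9, 36.7 and 35.3 RPKM in GPC and at 4.45, 4.06 and 4.74 in glia. These groups were far apart and it fell by 3.02 ± 0.08 in log2 (SE; edgeR adjusted p = 2.73e-09), beside an NFIA peak of score 16. Aurkb was at 75.9, 74.3, 62.7 and 71.0 RPKM in GPC and at 12.8, 13.0 and 12.7 in glia. It fell by 2.50 ± 0.08 in log2 (edgeR adjusted p = 6.56e-09) and had NFIA peaks with scores of 104, 87, 60, 56, 38, 36 and 15. The SOX peaks they overlap lay between -8611 and -3785 bp of its TSS, and some NFIA peaks share a SOX9 peak. Mki67, a proliferation marker, fell from 53.8 ± 12.9 to 9.48 ± 2.35 RPKM, with GPC replicate 3 lowest among GPC at 34.5. Mthfd1l, a mitochondrial folate enzyme, Hectd2, a ubiquitin ligase, and Egln3, an oxygen-sensing hydroxylase, changed by -2.63, -2.53 and -2.51 in log2. Emcn, an endothelial sialomucin, changed by -3.10 in log2. Dcpp2 fell from 69 reads in GPC to 4 in glia, with 1 glia library at 0. Its log2 change ran from -4.52 without glia replicate 1 to -2.74 without glia replicate 3. The SOX9 peak lay 16.3 kb from the TSS for Spsb4, -283 kb for Mki67, -92.3 kb for Mthfd1l and -19.8 kb for Hectd2. It lay -299 kb from the TSS for Emcn, 0.263 kb for Dcpp2 and 441 kb for a peak of Egln3.

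**Figure D5:**
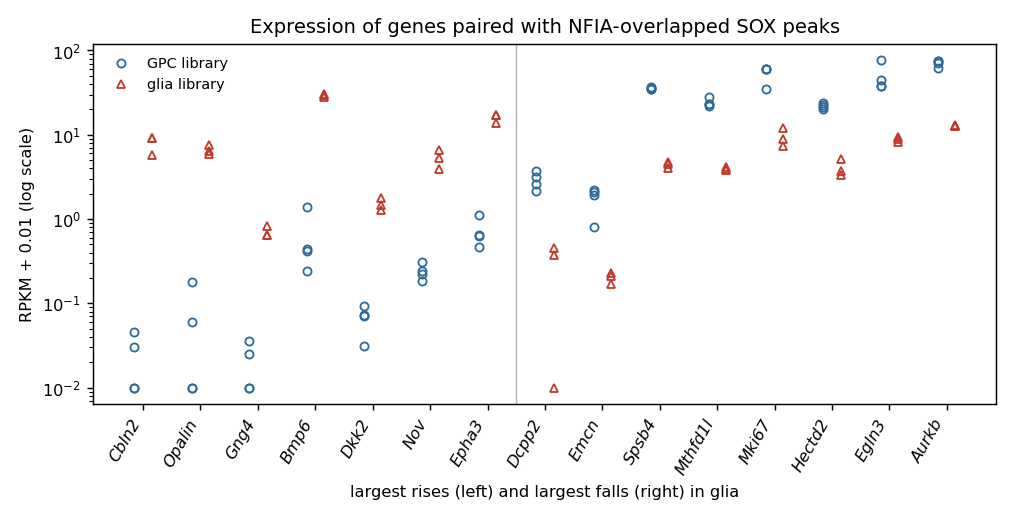
RPKM plus 0.01 on a log scale in each of 4 GPC (circles) and 3 glia (triangles) libraries for 7 of the largest rises and the 8 largest falls among genes paired with NFIA-overlapped SOX peaks. GPC and glia libraries are apart for every gene shown; Cbln2, Opalin and Gng4 rest on 2 to 3 GPC reads.

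Of the genes assigned to the highest-scoring shared peaks, only Ilf2, Ccser2, Btn2a2, Zfp184 and Arid1b were tested. Ilf2, Ccser2 and Btn2a2 fell, which is too few genes to give a direction. Over all genes tested, 35.2% fell and 35.2% rose. Zfp184 was not called, at 6.07 ± 0.398 RPKM in GPC and 5.80 ± 0.624 in glia. Ilf2 was at 114, 117, 131 and 119 RPKM in GPC and at 92.2, 95.2 and 94.5 in glia; the groups do not overlap and it fell by 0.39 ± 0.07 in log2 (edgeR adjusted p = 0.00055). Polr3e was at 18.99, 17.5, 17.4 and 18.6 RPKM in GPC and at 14.5, 13.1 and 14.4 in glia, a fall of 0.40 ± 0.07 (edgeR adjusted p = 0.00063). Ccser2 fell by 0.95 in log2, Btn2a2 by 2.47 from 0.481 RPKM, and Arid1b was not called. The SOX9 peaks of Ccser2 and Arid1b lay 113 and -369 kb from the TSS. Hist1h4h, Hist1h2ai and Pom121l2 did not pass the filter, with 10, 9 and 0 reads in GPC. Zfp868, with the most NFIA peaks, rose by 0.34 ± 0.08 (edgeR adjusted p = 0.00403).

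The NFI family itself was expressed in both groups. Nfia was at 10.4, 11.1, 15.8 and 11.2 RPKM in GPC and at 22.0, 27.1 and 20.8 in glia. The groups do not overlap, and it rose by 0.89 ± 0.15 in log2 (edgeR adjusted p = 0.000637). Nfib fell by 0.40 ± 0.11 with groups that overlap, and Nfic was not called, at 18.3 ± 2.84 and 20.0 ± 1.41 RPKM. Nfix rose by 0.67 ± 0.22 (edgeR adjusted p = 0.0266), a call lost without any 1 of GPC replicates 1, 2 and 4 or glia replicates 1, 2 and 3, with adjusted p from 0.0536 to 0.0841. Nfia and Nfib were each assigned a shared SOX9 peak. That of Nfia lay -291196 bp from its TSS with an NFIA score of 18. That of Nfib lay -114358 bp from its TSS with a score of 89. Sox9 rose by 0.41 ± 0.08 and Sox3 fell by 1.09 ± 0.26 in log2.

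Of 2766 genes with a SOX9 or SOX3 peak, 721 (26.1%) had one shared with NFIA, and the marker lists are given beside that share. Of 31 astrocyte genes, 16 had a SOX peak and 3 an NFIA overlap: Aldh1l1, a folate enzyme of astrocytes, Nfia and Nfib. Aldh1l1 was at 29.5, 30.03, 17.0 and 30.4 RPKM in GPC and at 11.3, 12.9 and 11.9 in glia, and it fell by 1.19 ± 0.20 (edgeR adjusted p = 0.000663), with GPC replicate 3 nearest to glia. Of 28 genes of maturing oligodendrocytes, 7 had a SOX peak and 1, Opalin, an NFIA overlap. Oligodendrocyte precursor genes (22, of which 8 had a SOX peak) and neuronal genes (20, of which 7 had one) had none with NFIA. Of 9 endothelial genes, 5 had a SOX peak and 4 of those an NFIA overlap, Cdh5, Tek, Emcn and Flt1, at mean levels of 0.0319, 0.0564, 1.76 and 0.484 RPKM in GPC. The list summed to 3.13 to 5.18 RPKM over GPC libraries, with Cldn5 at 0. Among other lists, Col3a1, a fibrillar collagen, rose by 2.07, Gli2, a Hedgehog effector, by 0.42 and Klf4 by 0.94 in log2. Jag1, a Notch ligand, fell by 0.70. The SOX9 peak lay -360 kb from the TSS for Col3a1, 56.8 kb for Gli2, -4.88 kb for Klf4 and -316 kb for Jag1.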

How the data were processed

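NFIA, SOX9 and SOX3 peaks came from lists made by the authors on mm9, per the submitters' processing notes. MACS and MACS2 are named there, but no source used here gives the caller of the NFIA list or the treatment of reads that map to several places. The authors deposited 1 NFIA list over 2 samples, with a score per peak whose meaning is not stated. SOX lists carry the authors' assigned gene and distance to the TSS. NFIA inputs and H3K27ac samples were not analysed here. Peaks overlap at 1 bp or more, clusters join centres at most 10 kb apart, and the NFIA list has no gene of its own, so genes came from SOX peaks. Symbols matched the expression table for 641 genes directly, 24 by synonym and 56 not at all.

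The read counts per gene were deposited by the authors unnormalized, and RPKM values were computed by the authors per the file headers; RPKM served for levels only. Counts were tested with edgeR 4.0.16 in R 4.3.3 (TMM, filterByExpr, quasi-likelihood, glia against GPC, Benjamini-Hochberg, two-sided, called at 0.05). A test on simulated data called 95 of 99 genes changed by log2 1 and 16 of 13299 unchanged genes. It changed 200 genes, evenly up and down, at the same dispersion for every gene and with no outlying library. It does not give the error rate in the real data, where 70.4% of genes tested were called. Alternatives were DESeq2 1.42.0, RLE size factors, other filters, left-out libraries, a replicate block and other overlap rules. Genes named were the NFI and SOX genes, those at the 10 highest scores overlapped, those with most NFIA peaks, the 8 largest rises and falls, and marker-list members; 1 of the rises is not reported here. Polr3e, Rab11a, Hist1h3h and Trim41 were named after values were seen.

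Members and lists were chosen with earlier results of these data known. Score classes, the score of 50, the tRNA measure, the B box search and both chromosome windows were set after values were seen.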

Additional observations from a re-analysis of the deposited data

Results flagged for a closer look

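Of 35 named genes examined, 10 had a GPC library far from the other 3, and 8 of the 10 were GPC replicate 3; chance flags about 1 in 20 groups. In GPC replicate 3, the RPKM was 15.8 for Nfia, 14.1 for Nfic, 121.9 for Sox3, 62.7 for Sox9, 34.5 for Mki67, 17.0 for Aldh1l1, 49.7 for Col3a1 and 8.10 for Jag1. GPC replicate 1 stood apart for Ccser2 at 32.9 RPKM and GPC replicate 2 for Zfp868 at 12.2.

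The NFIA list also had 13 rows on the mitochondrial chromosome, outside the peaks described here, with scores of 235 to 582 and a median of 335.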

How the results depend on the processing

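Counting only peaks at or above the median score left 8144 peaks, 1853 of them in clusters, and joining centres at most 25 kb apart put 5040 peaks in clusters. Requiring 0.5 of the NFIA peak to be covered left 49 peaks on SOX3. Restricting the paired genes to SOX peaks within 100 kb of the TSS called 209 of 293 genes tested (71.3%), 112 rising and 97 falling. Their median log2 change turned to -0.0106. At NFIA scores of at least 50, an alternative added after seeing the data, 92 of 128 genes (71.9%) were called, 51 rising and 41 falling. Of all genes tested, 70.4% were called. The alternatives on score, cover and TSS distance admit fewer peaks or genes by construction. Leaving out 1 library at a time gave 304 to 354 called genes, 167 to 191 rising and 133 to 163 falling. Same-numbered GPC and glia libraries correlated at -0.0202, 0.138 and 0.0684, and differently numbered ones at -0.159 to 0.0943. So few values cannot settle whether the numbers pair the samples. With the replicate block 310 genes were called, 174 rising and 136 falling. DESeq2 called 322. In all, 52 counts under alternatives stayed within 1.5 times of the reported count. Nfix also lost its call without the filter on low counts (edgeR adjusted p = 0.0695). Each factor has 1 list, so the spread of peak calls between samples was not measured.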
